A study of Mus musculus with 9 samples.

Results

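The transcriptome of unexposed tissue was read from the 3 control libraries of embryonic day 14 (E14) mouse brain, out of 9 libraries in the series. The members were the 3 columns of the raw count table whose labels name the control group, numbered control 1, control 2 and control 3, and per the labels the control treatment was saline. The other 6 libraries came from brain exposed to poly(I:C), an artificial double-stranded RNA used as a mimic of viral infection (3 libraries), or to valproic acid, an anticonvulsant that inhibits histone deacetylases (3 libraries). The design text calls the animals wildtype and the tissue whole brain, and the series concerns Notch signalling in mouse models of autism spectrum disorder. The labels give no strain, sex, litter, dose or dissection boundary. They do not say whether the 3 libraries came from separate embryos, so the spread between them may be technical in part.

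At this stage of mouse development radial glia line the ventricles as neural stem cells, divide there, and give rise to neurons directly or through intermediate progenitors. Newborn neurons migrate outward and extend axons, which draws heavily on tubulin, actin and their binding proteins. Most glia are still to come, whereas blood vessels, meninges, choroid plexus and microglia are already in place. From front to back, regions are marked by transcription factors such as Emx1 and Lhx2 in the telencephalon, Tcf7l2 in the thalamus, the engrailed genes around the boundary of midbrain and hindbrain, and Hox genes in hindbrain and spinal cord.

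The libraries held 16661890, 17669039 and 19883131 counts, and between 24408 and 24803 genes had at least 1 count in each. Levels of 1 gene between libraries are given as CPM (counts of the gene per 1000000 counts, scaled by TMM factors). Levels between genes are given per exon length, as TPM (counts per kilobase of merged exons, scaled to sum to 1000000). Values after ± are SDs over the 3 libraries (n = 3), and 3 values in a row are control 1, control 2 and control 3. A gene was called present at 1 CPM or more in each of the 3 libraries, absent at 0 counts in all 3, and low otherwise. No groups were compared, so every value is a description without a test. A count of 0 allows up to 3 counts, or 0.151 to 0.179 CPM in these libraries, and this limit covers counting error only. In bulk tissue, fewer cells of a type and less RNA per cell cannot be told apart.

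Counts were spread over many genes. In each library the 10 most abundant genes held 3.73% ± 0.159 of counts, the 100 most abundant 14% ± 0.182 and the 1000 most abundant 43.2% ± 0.204, and 1386 ± 13.3 genes made up 50% of counts. The table listed 56748 genes, of which 14881 (26.2%) were present, 13536 were low and 28331 were absent. Among 21922 protein-coding genes 13247 (60.4%) were present. The median level of present nuclear protein-coding genes was 25.7 TPM, the 95th percentile was 211 TPM and the 99th was 673 TPM.

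Of the 10 genes with the most counts, 2 serve translation (Eef1a1 and Eef2), 3 are tubulins and 2 belong to the mitochondrial respiratory chain. Eef1a1, the elongation factor that brings aminoacyl-tRNA to the ribosome, led with 6405, 6354 and 6277 CPM. It was followed by a gene that GENCODE M21 does not hold (ENSMUSG00000119584) and by mt-Co1, a mitochondrially encoded subunit of cytochrome oxidase, at 4597 ± 78.9 CPM. Next came the tubulins Tuba1a (4424 ± 125 CPM) and Tubb5 (3600 ± 141 CPM), then mt-Cytb, Nnat, Eef2, Tubb2b and the chaperone Hsp90ab1. ENSMUSG00000119584 had 3512, 5730 and 4667 CPM, the least even of these 10, lowest in control 1 and highest in control 2.

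Per exon length, the 25 highest nuclear protein-coding genes were led by Eef1a1 (9464 ± 115 TPM) and Tuba1a (9123 ± 239 TPM), an alpha-tubulin of growing neurons. Of their sequence, cut into windows of 31 bases, 49.6% and 77.2% also occurs in other genes. Here and in what follows, windows were compared only among 27195 genes with at least 1 count in a control library. Nnat, an imprinted gene that encodes the small membrane protein neuronatin, was next at 5644 ± 135 TPM and shared no window. The beta-tubulins Tubb2b (4416 ± 258 TPM), Tubb5 (4023 ± 148 TPM), Tubb3 (3945 ± 145 TPM) and Tubb2a (2043 ± 90.6 TPM) were all among the 25. Of 13 tubulin genes 12 were present, and Tuba8 was low.

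Other leading genes of the cytoskeleton were Tmsb10 (4198 ± 158 TPM) and Tmsb4x (3117 ± 149 TPM), which bind actin monomers, the actins Actb (2994 ± 30.8 TPM) and Actg1 (2652 ± 63.4 TPM), and Stmn1 (2579 ± 10.9 TPM), which destabilises microtubules. Marcksl1 (2848 ± 52.4 TPM) and Basp1 (2039 ± 72.9 TPM) encode proteins that bind the inner face of the membrane. Ptma (4243 ± 38.1 TPM) and Ptms (2335 ± 112 TPM) encode the acidic proteins prothymosin alpha and parathymosin. Rplp1, Rps15 and Rpl36 of the ribosome, Eef2, Hsp90ab1, the RNA-binding protein gene Hnrnpa1 and the ubiquitin gene Ubb were also among them. Hba-a1 (5323 ± 476 TPM) and Hbb-bs (2716 ± 158 TPM), the adult globins of red blood cells, completed the 25. The plot of the 25 levels shows the libraries close together, with Hba-a1 and Hbb-bs lowest in control 3.

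**Figure D1:**
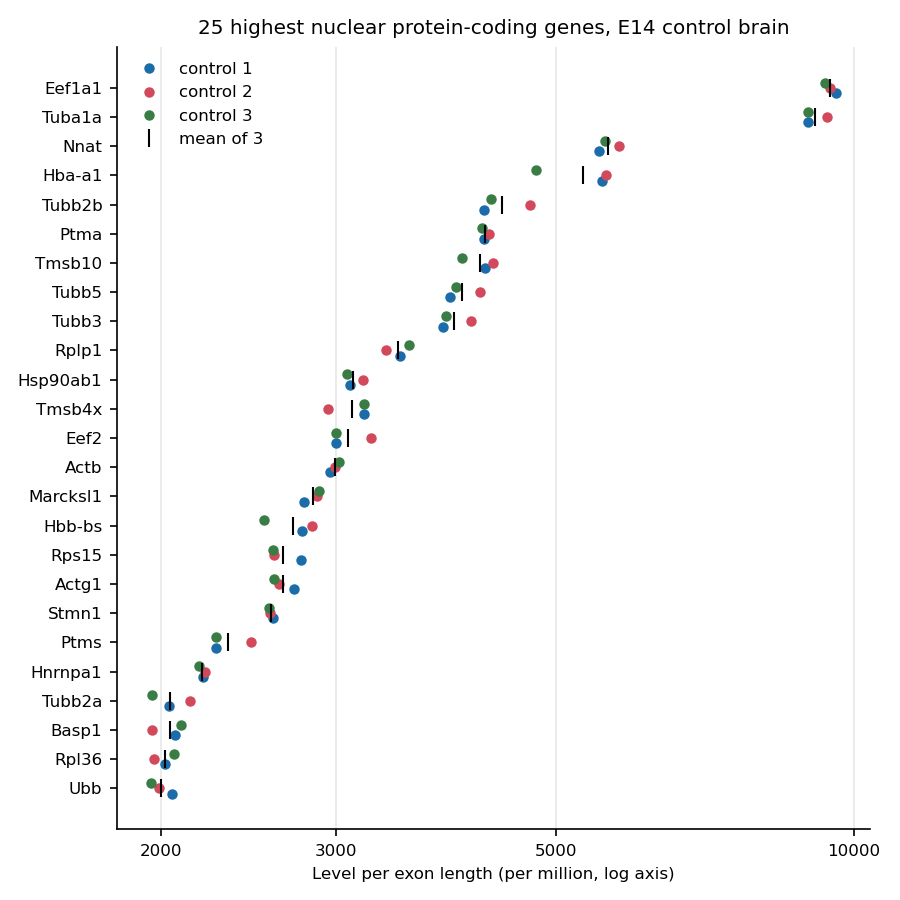
Level per exon length (TPM, log axis) of the 25 highest nuclear protein-coding genes, with 1 point for each of the 3 control libraries and a tick at their mean. With merged exon lengths Eef1a1 and Tuba1a stand highest at 9464 and 9123 TPM. The points for Hba-a1 run from 4774 TPM in control 3 to 5625 TPM in control 2.

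Protein-coding genes held 96.8% ± 0.122 of counts. Processed pseudogenes held 0.953% ± 0.0252, led by Gm15459, Gm15772 and Vcp-rs, which shared 96.9%, 94.8% and 89.5% of their windows with other genes. Long intergenic noncoding RNAs held 0.655% ± 0.00769. Their leaders were Meg3, a maternally expressed imprinted RNA (1072 ± 34.2 CPM), Miat (761 ± 3.71 CPM) and 2900097C17Rik (475 ± 5.49 CPM). Genes outside GENCODE M21 held 0.647% ± 0.109, most of it in ENSMUSG00000119584.

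Processed transcripts held 0.284% of counts (3110039I08Rik, Cct6a and Rian led) and antisense RNAs 0.187% (Tug1, Dlx6os1 and E130307A14Rik). Without a stated strand setting, reads of antisense genes and of the genes opposite them cannot be told apart. Transcribed processed pseudogenes held 0.122%, led by Rps2-ps10 (215, 443 and 215 CPM), Gm6472 and Gm1821. Rps2-ps10 was high in control 2 alone, where Rps2-ps13 was low (327, 100.7 and 343 CPM). Rps2-ps13 is its most abundant copy by the rule described with the variable genes. The sum over Rps2-ps10 and its 28 copies was 557, 566 and 576 CPM.

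Mitochondrially encoded genes held 1.52% ± 0.0233 of counts and were unlike one another. mt-Cytb (9620 ± 77.7 TPM) and mt-Nd1 (9072 ± 158 TPM), with none of their windows in other genes, were high. mt-Co2 (171 ± 4.24 TPM), mt-Atp6 (127 ± 53.1 TPM) and mt-Co3 (88.5 ± 3.36 TPM), with 100%, 99.5% and 99.9% of windows in other genes, were far lower. The contrast did not hold for all: mt-Co1 (11064 ± 201 TPM) and mt-Nd4 (3756 ± 130 TPM) were high with 63.6% and 62.8% of their windows shared. In turn mt-Atp8 was low (2.62 ± 1.355 TPM) with 7.47% shared. How reads that match several genes were counted is not given in the sources used here.

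Cytosolic ribosomal protein genes held 2.70% ± 0.0625 of counts, and 80 of 84 were present. Present members ranged from Rplp1 (3469 ± 92.8 TPM) and Rps15 (2656 ± 99.2 TPM) down to Rps10 (8.86 ± 0.792 TPM), Rpl29 (8.69 ± 0.660 TPM) and Rpl34 (8.10 ± 2.33 TPM). Genes at the foot of a list, here and in what follows, were looked up after their values were seen. Reads placed in pseudogenes do not enter the share. Rpl29, Rps10 and Rpl34 shared 44.3%, 23.4% and 9.5% of their windows with other genes. Rps2 had 6.1, 9.5 and 7.2 CPM with 43.4% shared, beside means of 291 and 257 CPM for the pseudogenes Rps2-ps10 and Rps2-ps13. How reads were divided among such genes is not given, so a low value here does not show low expression.

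Of glycolytic genes all 17 were present, led by Pkm (740.2 ± 7.71 TPM), Ldhb (452 ± 5.73 TPM) and Pgk1 (396 ± 5.88 TPM). Gapdh, the glycolytic enzyme often used as a reference gene, had 10.3, 10.1 and 77.2 CPM, low in control 1 and control 2 and high in control 3. Its mean level was 29.3 ± 34.8 TPM. Gapdh had 51 copies by the rule described with the variable genes, and the sum over the gene and its copies was 142, 150.1 and 209 CPM.

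Per the labels the libraries were made from total RNA after removal of ribosomal RNA. Mitochondrial ribosomal RNAs held 0.0669% of counts and small nuclear RNAs 0.00121%. Genes outside GENCODE M21, with the abundant ENSMUSG00000119584 among them, have no class here and enter neither share. How much ribosomal RNA was left in all is therefore not known. Of 5 noncoding RNAs of splicing and RNA processing in the table none was present, and Rmrp, Rpph1, Rny1 and Rny3 were absent. The 67 Hist-named histone genes, most of whose transcripts lack a poly(A) tail, held 0.0176% ± 0.000500 of counts. Of these Hist3h2ba alone held 0.00951% and stood at 576 ± 13.2 TPM. The replacement histone genes H3f3b (1326 ± 25.7 TPM) and H3f3a (927 ± 44.8 TPM), whose transcripts carry a tail, were higher still. Of S phase genes all 17 were present, led by Mcm7 (147 ± 2.18 TPM), Rrm2 (102 ± 4.96 TPM) and Pcna (96.1 ± 3.24 TPM). Whether the library method bears on these levels was not tested.

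Cell-type lists were read next. Over 29 lists, 174 of 250 entries were present, 58 were low and 18 were absent, beside 60.4% of all protein-coding genes being present.

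Neural progenitors were well represented. Of radial glia genes all 14 were present. Fabp7, a fatty acid binding protein of radial glia, had 1344 ± 41.8 TPM, the intermediate filament genes Vim and Nes 459 ± 11.6 TPM and 224 ± 3.86 TPM, and the transcription factor genes Sox2 and Sox9 380.1 ± 21.2 TPM and 81.1 ± 5.45 TPM. Of proneural and intermediate progenitor genes 9 of 10 were present. Neurog2 (245 ± 8.86 TPM) and Eomes (135 ± 3.96 TPM) mark the cortical excitatory lineage, and Insm1 (169 ± 5.82 TPM) newborn neuronal cells. Atoh1, the proneural gene of cerebellar granule cells and other hindbrain neurons, was absent. Of G2 and M phase genes all 17 were present, led by Cdc20 (146 ± 17.8 TPM) and Top2a (109 ± 2.24 TPM).

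Notch signalling holds radial glia in the progenitor state: a ligand on a cell activates the receptor on its neighbour, which switches on Hes genes that repress proneural genes. Of Notch pathway genes all 21 were present. Among the ligands Dll1 had 69.1, 68.7 and 69 CPM (60.7 ± 0.357 TPM), and the receptor gene Notch1 had 138, 149 and 143 CPM (37.4 ± 1.43 TPM). Both were even between libraries. The fringe enzymes Rfng (91.6 ± 1.12 TPM), Mfng (64.6 ± 0.356 TPM) and Lfng (39.1 ± 2.92 TPM), which add sugar to Notch receptors, stood among the highest members. The effectors Hes1 and Hes5 had 13.9, 16.8 and 15.5 CPM and 10.8, 14.4 and 17.5 CPM. Hes5 was lowest in control 1 and highest in control 3.

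Of postmitotic neuron genes all 15 were present, led by Tubb3, Gap43 (1254 ± 25.4 TPM), a growth cone protein, Uchl1 (1044 ± 111 TPM), Ina (674 ± 9.95 TPM) and Mapt (602 ± 24.1 TPM). Snap25 of the synaptic release machinery (55.9 ± 1.5 TPM) and the neurofilament gene Nefl (52.2 ± 0.828 TPM) stood at the foot of the list. Of glutamatergic genes all 8 were present, led by Neurod6 (670 ± 27.7 TPM), Neurod2 (356 ± 13 TPM) and Tbr1 (188 ± 3.71 TPM) of cortical projection neurons.

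Of cortical layer genes all 10 were present. Bcl11b (179 ± 5.72 TPM) and Fezf2 (136 ± 12.6 TPM) of deep layers stood above Cux2 (36.8 ± 2.36 TPM) and Rorb (7.54 ± 0.668 TPM) of upper layers. Of genes of Cajal-Retzius cells, which secrete reelin at the cortical surface, all 6 were present, and Reln had 36.2 ± 1.53 TPM.

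Of inhibitory neuron genes 11 of 13 were present. The peptide gene Sst had 281 ± 10.5 TPM, the transcription factor genes Dlx2 and Dlx1 138 ± 7.75 TPM and 107 ± 4.75 TPM, and Gad2, which makes GABA, 75 ± 1.69 TPM. Vip was absent and Pvalb was low, both marks of interneuron classes that mature later. Of genes of striatal projection neurons all 10 were present, from Meis2 (109 ± 2.80 TPM) and Isl1 (40.7 ± 5.71 TPM) down to the dopamine receptors Drd2 (8.09 ± 0.437 TPM) and Drd1 (5.64 ± 0.410 TPM).

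Markers of brainstem neurons were at or near 0. Of serotonergic genes 2 of 5 were present. Tph2, which makes serotonin in neurons, had 0, 0.0567 and 0.252 CPM, and Fev, a factor specific to these cells in the brain, had 0, 0.113 and 0.0505 CPM. The 2 present members, Gata3 (2.89 ± 0.865 TPM) and Gata2 (2.64 ± 0.572 TPM), are also used by other neurons and by blood cells. Of noradrenergic genes 0 of 4 were present, and Phox2a was absent.

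Of dopaminergic genes 6 of 9 were present, led by Nr4a2 (38 ± 3.68 TPM) and Slc18a2 (27 ± 3.23 TPM), which other neurons also use. The other 3 members were low. Among them were the dopamine transporter gene Slc6a3 (1.14, 0.567 and 0.353 CPM) and Pitx3 (0.478, 0.113 and 0 CPM), both of midbrain dopamine neurons. Of cholinergic and motor neuron genes 1 of 5, the choline transporter gene Slc5a7, was present.

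Among glial genes all 6 of oligodendrocyte precursors were present, led by Olig2 (42.4 ± 3.69 TPM) and Olig1 (29.9 ± 0.716 TPM). Of genes of mature oligodendrocytes 5 of 8 were present. Cldn11 (71.7 ± 9.37 TPM), which meninges also use, and the myelin gene Mog (25.8 ± 5.18 TPM) led them, and Mag, Mobp and Opalin were low. Of genes of mature astrocytes 5 of 8 were present, led by Aldoc (129 ± 4.33 TPM) and Slc1a2 (41.8 ± 4.16 TPM), whereas Gfap, Aqp4 and S100b were low.

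Of microglia genes all 12 were present, among them the complement gene C1qa (37.9 ± 3.55 TPM) and the receptor genes Csf1r (18.2 ± 2.07 TPM) and Cx3cr1, looked up after its value was seen (14.9 ± 1.11 TPM). Their leading member, Sall1 (53.4 ± 2.77 TPM), is also used by neural progenitors. Of genes of border macrophages, which live in meninges and around vessels, 5 of 6 were present, led by Pf4 (27.9 ± 7.01 TPM). Of genes of other white blood cells 1 of 8 was present, Ptprc at 1.97, 1.36 and 1.26 CPM.

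Of endothelial genes all 10 were present, led by Cldn5 (187 ± 11.8 TPM), a tight junction protein, and Slc2a1 (95 ± 5.83 TPM), the glucose transporter of the blood-brain barrier. Of pericyte and smooth muscle genes 8 of 9 were present, led by Vtn (96.8 ± 6.55 TPM) and Rgs5 (61.9 ± 3.80 TPM). Of genes of meningeal fibroblasts all 9 were present, led by the collagens Col3a1 (99.3 ± 1.27 TPM) and Col1a1 (90.2 ± 6.71 TPM). Vessels and meninges were thus marked in full or nearly so.

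Of red blood cell genes 9 of 10 were present. The embryonic globin Hbb-y had 358 ± 80.0 TPM, below the adult Hba-a1, and Hbb-bh1 was low. Hba-a1 and Hba-a2 (52 ± 18.1 TPM) are near-identical genes, so the division of reads between them is uncertain. The choroid plexus gene Ttr, the thyroid hormone carrier, had 512, 593 and 456 CPM (1631 ± 214 TPM), far above the next member, Clic6 (31.7 ± 2.56 TPM), and 5 of 8 were present. Of ciliated ependyma genes 2 of 4 were present, and Foxj1, the regulator of motile cilia, had 28.1 ± 0.920 TPM.

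Few genes of tissue outside the brain were present. Of genes of peripheral ganglia and Schwann cells 1 of 6 was present, Pou4f1 (6.35 ± 0.275 TPM), which the habenula also uses. Of genes of skin, muscle and cartilage 2 of 10 were present, Col2a1 (28.3 ± 3.21 TPM) and Acta1 (4.25 ± 0.764 TPM), and Krt5 and Myod1 were absent. Of pituitary genes 1 of 8 was present, Pomc (12.5 ± 3.11 TPM), which hypothalamic neurons also make. Of genes of eye, pineal and pigment cells 1 of 8 was present, Dct (4.85 ± 0.599 TPM), and of genes of organs outside the head 0 of 11 were present. The bar plot of the 29 lists shows full bars for radial glia, cortical neurons, microglia, endothelium and meninges, and short ones for brainstem neurons and outside tissue.

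**Figure D2:**
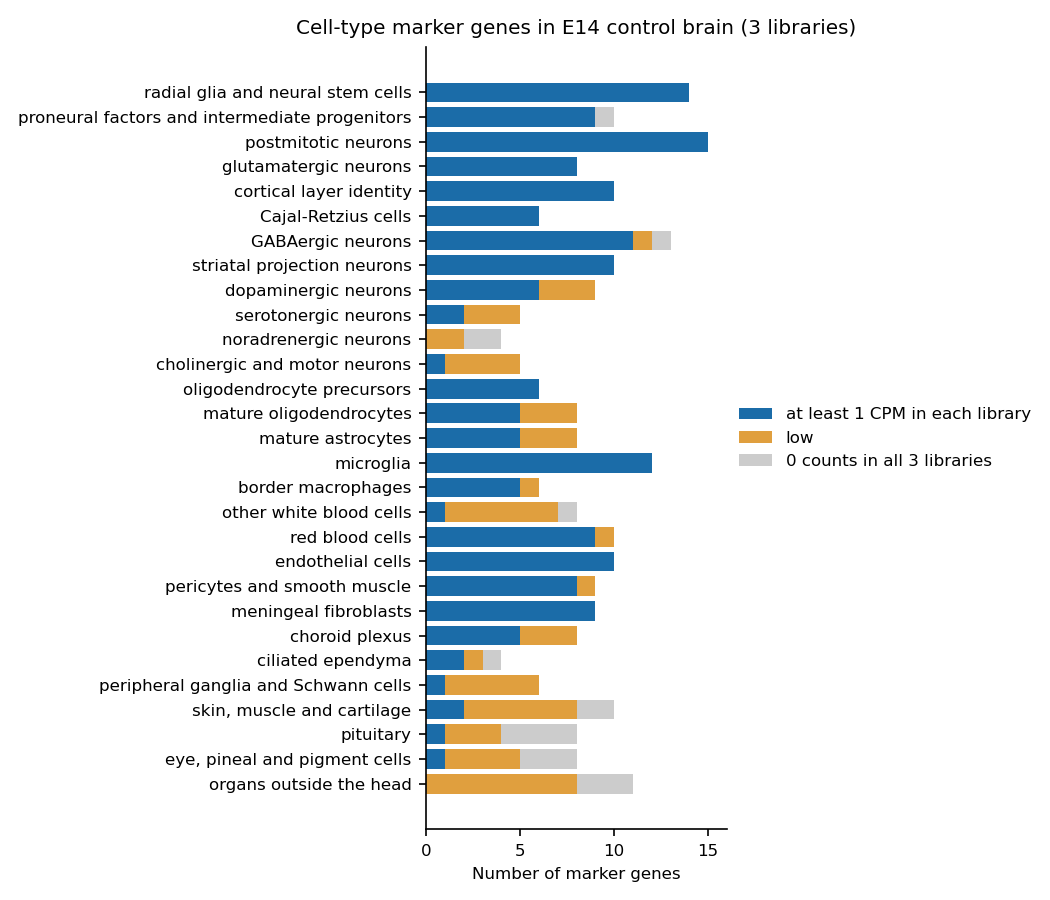
Number of marker genes in each of 29 cell-type lists that were present (at least 1 CPM in each of 3 control libraries), low, or at 0 counts in all 3. All 14 radial glia and 15 neuron genes were present, against 0 of 4 noradrenergic genes.

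The regional markers differed from front to back, in tissue labelled whole brain. Over 9 regional lists, 37 of 81 entries were present, 12 were low and 32 were absent, beside 60.4% of all protein-coding genes being present and 21.6% absent. Of these entries 22 were spinal Hox genes, 19 of them absent, so the total by itself shows no departure from whole brain. Of telencephalic genes all 5 were present, among them Lhx2 (227, 232 and 239 CPM, 197 ± 4.88 TPM), Emx1 (78 ± 4.19 TPM) and Emx2 (42.5 ± 1.62 TPM). Of genes of the ganglionic eminences all 7 were present, with Nkx2-1 of the medial eminence at 83.9 ± 3.54 TPM. Of genes of the cortical hem and hippocampus all 5 were present, from Prox1 (28.4 ± 1.79 TPM) down to Wnt3a (2.90 ± 0.868 TPM).

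The diencephalon was marked too. Of thalamic genes all 6 were present, with Tcf7l2 at 273, 238 and 240.5 CPM (106 ± 8.46 TPM) and Gbx2 at 25 ± 1.26 TPM. Of hypothalamic genes 8 of 10 were present, among them Otp (29.3 ± 1.64 TPM) and the vasopressin gene Avp (16 ± 3.32 TPM). Oxt, the oxytocin gene, was absent, and Rax was low. Lhx6, the highest of this list (69.4 ± 3.46 TPM), also marks migrating interneurons.

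Behind the diencephalon most genes of each list were low or absent. Of midbrain genes 3 of 7 were present: Otx2 (20.5 ± 1.80 TPM), which the forebrain also uses, and Pax7 and Pax3 at 1.17 ± 0.702 TPM and 1.07 ± 0.722 TPM. En1 and En2, which define the territory around the boundary of midbrain and hindbrain, had 0.239, 0.340 and 0.0505 CPM and 0.896, 0.113 and 0.151 CPM. Pax2 and Pax5 were low as well. Of cerebellar genes 3 of 7 were present. Atoh1 and Ptf1a, the factors behind its excitatory and inhibitory neurons, were absent, and Skor2 and Pcp2 of Purkinje cells were low. The 3 that were present, Zic1 (228 ± 3.76 TPM), Zic2 (133 ± 5.05 TPM) and Barhl1 (6.31 ± 1.65 TPM), are also used in the forebrain.

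Of hindbrain Hox genes (groups 1 to 4) 0 of 12 were present and 10 were absent, with 0, 5 and 2 counts summed over the list. Of spinal Hox genes (groups 5 to 13) 0 of 22 were present and 19 were absent, with 4, 8 and 2 counts summed. The other 6 libraries held 2 to 5 counts over the hindbrain Hox genes and 2 to 7 over the spinal ones. Defining genes of cerebellum, pons and medulla were thus at or near 0 in tissue called whole brain. Of the midbrain list En1, En2, Pax2 and Pax5 were low. The lists of telencephalon and thalamus were present in full. Which parts of the brain were collected is not stated beyond the label.

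Further lists covered metabolism, imprinting and stress. Of genes of cholesterol synthesis all 14 were present, led by Hmgcs1 (329 ± 6.16 TPM). Of imprinted genes all 20 were present, led after Nnat by Ndn (637 ± 25.6 TPM), H19 (458 ± 27.3 TPM) and Snrpn (241 ± 8.38 TPM). Igf2, the growth factor gene beside H19, stood at 7.91 ± 0.881 TPM. Of heat shock chaperone genes 10 of 11 and of hypoxia response genes 9 of 10 were present. Of interferon response genes 4 of 12 were present, led by Ifitm3 (27.4 ± 1.31 TPM), and Ifit1 and Mx1 were low. Of immediate early genes 9 of 13 were present, led by Jun (91.8 ± 0.544 TPM), and Fos was low at 0.956, 0.680 and 1.31 CPM.

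The 3 libraries were close to one another. Over 12213 genes that averaged 5 CPM or more, between 38 and 41 genes stood 2-fold or more apart in a pair of libraries. Spread between libraries is given as the coefficient of variation (CV) left after the counting variance was subtracted, set to 0 where nothing was left. Its median over the 12213 genes was 3.16%. It was 0 for 3798 genes, at least 20% for 263 and at least 50% for 42. Among the 10 steadiest genes above 100 CPM were Peg3 (278, 278 and 278 CPM), Ywhae (1204, 1203 and 1201 CPM) and Gria2 (349.9, 349 and 348 CPM). Their CVs lay under their counting error (0.0785% against 1.41% for Peg3), so these 10 are not shown to differ from other even genes.

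Most marker lists moved little between libraries. All 5 telencephalic genes were highest in control 3 and lowest in control 1, with Lhx2 at 227, 232 and 239 CPM. Of 7 midbrain genes 5 were highest in control 1, with sums of 33.3, 24.1 and 27.3 CPM. Of 6 Cajal-Retzius genes 5 were highest in control 1 and 5 lowest in control 3, with sums of 401, 379.5 and 359.5 CPM. Over all 12213 genes, 30.8% were highest in control 1, 33.6% in control 2 and 35.5% in control 3, and 34.2%, 36.5% and 29.4% were lowest there.

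Choroid plexus genes summed to 568, 659.6 and 515 CPM, and 5 of 8 were highest in control 2. Red blood cell genes summed to 2063, 2103 and 1819 CPM, and 7 of 10 were lowest in control 3. Of 17 S phase genes 12, and of 17 G2 and M phase genes 11, were highest in control 3, with sums of 1163, 1148 and 1208 CPM and 1254, 1246 and 1316 CPM. Control 3 thus held the highest cell cycle sums and the lowest globin sum of the 3, by small margins. Whether the makeup of the samples bears on other differences was not tested.

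The most variable genes were divided into those with copies among the compared genes and those without. Of the 100 most variable genes of any symbol 30 were pseudogenes, against 2.38% of all 12213. Of the 97 of them with sequence, 63 had at least 20% of their windows in other genes, against 10.4% of all genes. A copy is a gene with a count in a control library that shares at least 20% of the windows of the smaller of the pair. Copies in the genome without such a count are not seen. Of the 100 genes 68 had copies. Sums over a gene and its copies are given beside the gene. Adding a steadier and more abundant copy lowers a CV by itself, so an even sum bears on the gene only where its copies moved the opposite way by a like amount.

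**Figure D3:**
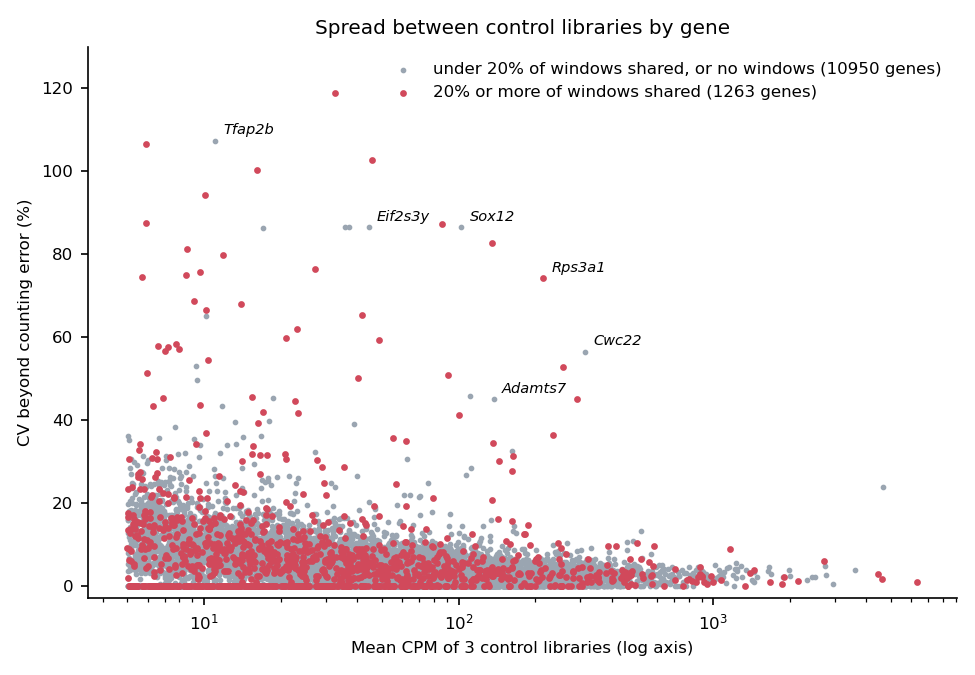
CV beyond counting error (%) against mean CPM (log axis) of the 3 control libraries for 12213 genes, with the 1263 genes that share 20% or more of their windows in red. Many of the highest points are red, while Tfap2b, Sox12, Cwc22 and Adamts7 stand high in grey.

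Rps3a1, a protein of the small ribosomal subunit, had 398, 125 and 120.1 CPM, while its processed pseudogene Rps3a2 had 136, 279 and 291 CPM. The gene was high and the pseudogene low in control 1. The sum over Rps3a1 and its 6 copies was 641, 595 and 609 CPM. The next stretches show how little sets the genes apart: they give bases 171 to 260 of the coding sequence, 5′ to 3′ (GENCODE M21), with bases that differ from Rps3a1 in capitals.

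Rps3a1: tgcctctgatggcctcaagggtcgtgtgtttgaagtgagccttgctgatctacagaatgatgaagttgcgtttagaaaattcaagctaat
Rps3a2: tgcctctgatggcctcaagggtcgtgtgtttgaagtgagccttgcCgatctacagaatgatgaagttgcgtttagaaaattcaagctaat
Rps3a3: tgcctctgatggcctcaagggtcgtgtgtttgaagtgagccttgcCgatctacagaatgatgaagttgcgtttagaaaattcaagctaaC

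Over all 792 coding bases Rps3a2 differed from Rps3a1 at 4 positions and Rps3a3 at 9. Eef1g, a subunit of a translation elongation factor complex, and its processed pseudogene Gm4366 gave another such pair. Gm4366 had 18.9, 100.2 and 18.4 CPM and Eef1g 624, 519.9 and 612 CPM. The pseudogene was high and the gene low in control 2. The pair differed at 5 of 1311 coding bases, 1 of them within bases 201 to 290, where it stands in capitals.

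Eef1g: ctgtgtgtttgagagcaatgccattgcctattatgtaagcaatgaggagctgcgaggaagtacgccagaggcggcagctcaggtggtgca
Gm4366: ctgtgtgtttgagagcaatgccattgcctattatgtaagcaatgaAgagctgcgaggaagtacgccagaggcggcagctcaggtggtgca

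Of the 30 most variable genes with an established symbol 18 had copies. Hmgn2, a nucleosome binding protein, had 53.2, 75.2 and 17.8 CPM, and with its 9 copies 291, 284 and 289.8 CPM. The ribosomal protein gene Rpl17 had 62, 144 and 94.6 CPM, and with its 11 copies 382, 373 and 376 CPM. Rpl30 had 116, 37.5 and 119.9 CPM, and with its 11 copies 252, 236 and 252 CPM. Their most abundant copies, Gm10282 (184, 162 and 217 CPM), Rpl17-ps10 (205, 115 and 168 CPM) and Gm12191 (120, 195 and 118 CPM), were highest where the gene was lowest. Srp54b (6.45, 1.08 and 9.54 CPM), Ndufa12 (39.8, 13.8 and 16 CPM), Tagap (7.17, 2.50 and 10.2 CPM), Rsph3b (6.69, 2.55 and 8.68 CPM) and Dynlt1a (7.58, 14.6 and 8.43 CPM) also had copies.

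For others the sum stayed uneven. Sumo2, a small protein modifier, had 172, 38.1 and 47.1 CPM and, with its 9 copies, 185, 95.9 and 110.4 CPM. Polr2k, an RNA polymerase subunit, had 20.2, 3.0 and 18.9 CPM and 21.6, 4.08 and 19.8 CPM in the sum. Sumo2 was high in control 1 alone and Polr2k low in control 2 alone. Rpl35a (169, 88.6 and 74.9 CPM), Xlr3b (20.9, 12.7 and 1.97 CPM), Trim12c (3.29, 8.16 and 9.28 CPM) and mt-Atp6 (16.2, 34.5 and 19.3 CPM) kept CVs of 31.9%, 77.9%, 33.9% and 16.9% in the sum.

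Sox12, Adamts7 and Cwc22, which had no copy or, for Cwc22, a copy near 0, differed between libraries in large steps. Sox12, a transcription factor of the SoxC group, had 0.0597, 155 and 152 CPM, so that control 1 held a single count of it. In the poly(I:C) libraries Sox12 had 313, 316 and 159 CPM and in the valproic acid libraries 0.231, 0.173 and 0.193 CPM. Over all 9 libraries its values lay at 3 separate levels: under 1 CPM, 152 to 159 CPM and 313 to 316 CPM.

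Adamts7, a secreted protease, had 168, 65.8 and 177 CPM, low in control 2. It had 175, 178 and 179 CPM in poly(I:C) and 73.1, 63.5 and 69.5 CPM in valproic acid, so that the 9 libraries lay at 2 levels. Cwc22, a splicing factor, had 109.5, 405 and 428 CPM, low in control 1, and 401 to 1000 CPM in the other 6 libraries. Rps3a1 had 643, 638 and 634 CPM in poly(I:C) and 435, 433 and 420.5 CPM in valproic acid, even within each group. What sets these steps was not tested.

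Tfap2b, a transcription factor of neural crest and dorsal brain, had 24.9, 3.80 and 4.59 CPM and was high in control 1 alone. Pax3, Pax7 and En2 of the midbrain list, looked up beside it after their values were seen, were also highest in control 1 (Pax3 3.17, 1.13 and 1.06 CPM, Pax7 3.11, 1.25 and 1.16 CPM). Of the other members of that list Otx2 and Pax2 were highest in control 1 too, whereas En1 was highest in control 2 and Pax5 in control 3. In the exposed groups Tfap2b was highest in poly(I:C) replicate 2 (20.7 CPM) and valproic acid replicate 3 (10.8 CPM). So were Pax3, Pax7 and En2 within those groups, with En2 at only 0.116 to 0.549 CPM. The sum over all 7 midbrain genes was 28.9, 33.2 and 27 CPM in poly(I:C) and 24.3, 28.7 and 28.3 CPM in valproic acid. In valproic acid the sum was thus highest in replicate 2.

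The Y-linked genes Kdm5d, Eif2s3y, Ddx3y and Uty were among the 30: Eif2s3y, a translation initiation factor subunit, had 65.8, 67.2 and 0 CPM, and the other three were likewise at 0 in control 3 alone. Xist, the RNA that coats the inactive X chromosome, had 0.239, 0.113 and 0.0505 CPM, so that control 3 carried neither signal. In poly(I:C) Xist had 0.217, 0.165 and 1043 CPM and Eif2s3y 70.2, 68.6 and 0 CPM. In valproic acid Xist had 1045, 1035 and 966 CPM, with Eif2s3y at 0 CPM throughout. Of the 9 libraries control 3 alone thus lacked both. The median log2 difference of control 3 from the mean of the others was 0.02 over 432 X-linked genes and 0.01 over 11706 autosomal genes.

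On chromosome 14, Duxbl1 (27.8, 17.5 and 10.8 CPM), Tmem254a (53, 40.9 and 22.6 CPM) and Plac9a (11.2, 10.9 and 5.30 CPM, looked up after its value was seen) were all highest in control 1 and lowest in control 3. They are neighbours, with 0 present genes between Duxbl1 and Tmem254a and 0 between Tmem254a and Plac9a in the order of GENCODE M21. Cdhr1, a cadherin-related gene on the same chromosome with 64 present genes between it and Duxbl1, had 16.7, 10.3 and 3.43 CPM. Prss22 (6.93, 15 and 5.95 CPM), Akr1e1 (13.9, 13.8 and 26.4 CPM) and Dera (6.57, 5.39 and 11.1 CPM) completed the 30. Prss22 was high in control 2 and the others in control 3.

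**Figure D4:**
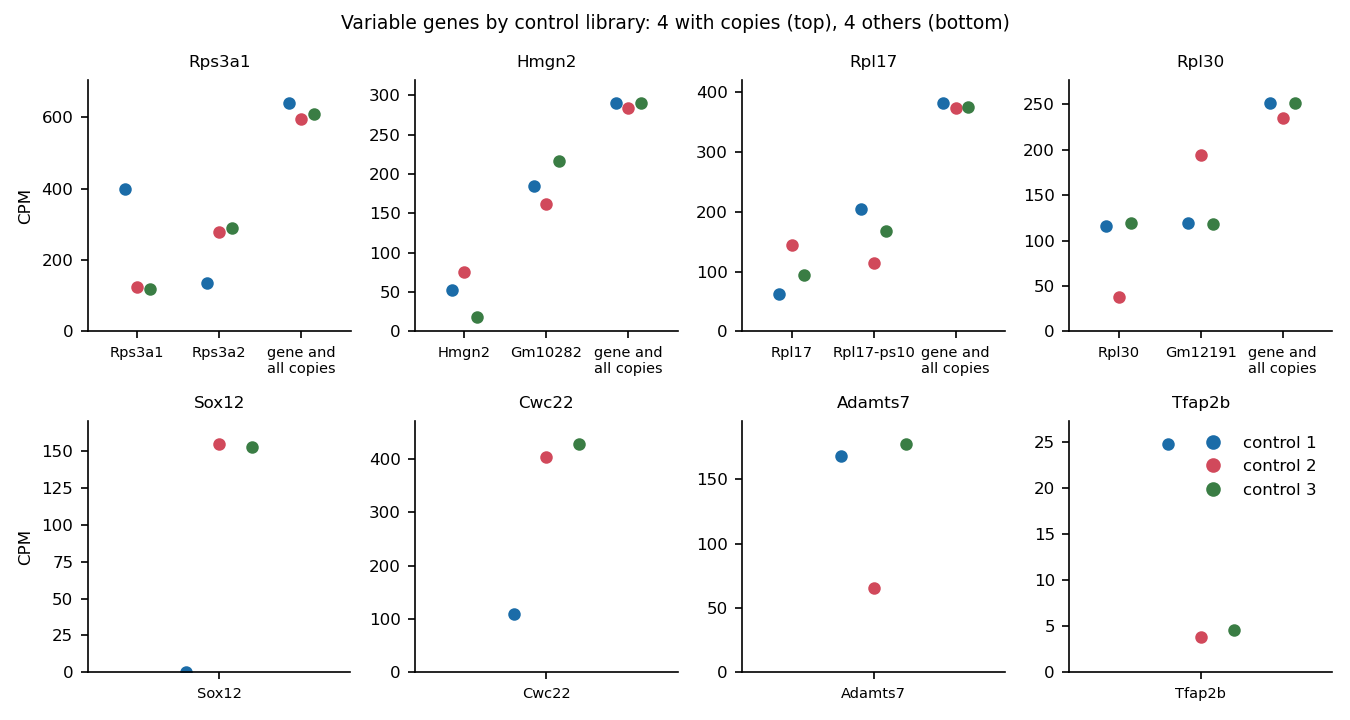
CPM in control 1, control 2 and control 3 (points) of 4 variable genes with copies, beside their most abundant copy and the sum over the gene and all copies (top), and of 4 other variable genes (bottom). The sums for Rps3a1 lie between 595 and 641 CPM, while Sox12 stands at 0.0597, 155 and 152 CPM.

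Many of these genes, though not all, were uneven in libraries that had no part in choosing them. Within poly(I:C) 29 of the 30 had a count, all but Prss22, their median CV beyond counting error was 40.7%, and 24 of them had at least 20%, against a median of 2.53% and 216 of 12212 genes. Within valproic acid 26 had a count, since the 4 Y-linked genes were at 0 there, their median was 33.8%, and 19 had at least 20%, against 3.42% and 338 of 12209 genes. Rps3a1 (0% and 1.41%) and Adamts7 (0% and 6.48%) were even within both exposed groups (CV within poly(I:C), then valproic acid). Gapdh, the most variable of the 30, had 115 CPM in poly(I:C) replicate 1 and 6.70 to 10.4 CPM in the other 5 exposed libraries.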

How the data were processed

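Total RNA depleted of ribosomal RNA was sequenced, per the labels' protocols. HISAT2 and GRCm39 (mm39) are named in the submitters' processing notes, and which tool, strand option and gene annotation produced the counts is not given in the sources used here. The authors deposited raw counts per gene for 9 libraries, and the 3 control columns were used, with those of the exposed groups only for side-by-side values. All columns matched a sample (0 unmapped).

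Symbols, classes, chromosomes and exon lengths came from GENCODE M21 (GRCm38, so no coordinates are given), which held 52125 of 56748 genes. CPM used TMM factors from edgeR 4.0.16 (R 4.3.3) on the 3 controls. TPM used merged exon lengths. Shared windows (31 bases) were counted over the M21 transcripts of the 27195 genes with at least 1 control count. For copies, windows in at most 50 genes were used. Python 3.11.15 was used with numpy 2.4.6, pandas 2.3.3 and matplotlib 3.10.9. The calculations were tested on simulated data.

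The genes named were the 10 highest by count, the 25 highest per length, the 3 highest of each class with at least 0.1% of counts, leading and absent members of 55 lists, the 30 most and 10 least variable genes, and 4 Notch genes. Others, including low members and those at the foot of a list, were looked up after their values were seen. Members and lists were chosen with earlier results of these data known. The alternatives covered DESeq2 1.42.0 size factors, library totals, thresholds, lengths and leaving out each library. Some genes of the lists enter the counts but are not reported here by name or level.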

Additional observations from a re-analysis of the deposited data

How the results depend on the processing

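No paired analysis was possible because the results describe 1 group and come from no test. The number of genes that make up 50% of counts was 877 with levels per length in place of counts (1386 with counts). Present genes numbered 15977 at 10 counts in each library and 15450 at 1 CPM in 2 libraries. Present cell-type and regional entries numbered 176 and 35 at 1 TPM. That threshold changed 6 of 38 lists, by at most 2 genes, and took Pax3 and Pax7 from the midbrain list. With the mean transcript length 17 of the 25 highest genes remained. Tuba1a then fell from 9123 to 3942 TPM, under Nnat (5262 TPM), whereas Eef1a1 rose from 9464 to 10736 TPM. The place of Tuba1a thus depends on the length used. The median CV beyond counting error was 1.07% to 1.99% when a library was left out (3.16% with 3), where fewer libraries enter the CV. Of the 30 most variable genes 14 remained at a minimum of 1 CPM and 16 at 20 CPM, which 16 of the 30 reach. Between 15 and 19 remained without each library, and 11 among genes with under 2% of windows shared. After summing copies, which adds steadier counts to some genes, 16 of the 30 had a CV at or above that of the last of them. Leaving out libraries for counts of present genes and markers, for the genes making up 50% of counts and for the median CV, 10 counts for markers, the sum over copies and the limit on shared windows were chosen after seeing the data. Over the alternatives to these summary results, 49 values stayed within 1.5 times or, for class shares, within 1 SD, and 11 did not. Leaving out 1 of 3 libraries cannot move a mean by 1 SD. The class shares among the 49 thus had to stay, and they say nothing about stability. Depth limits genes near 1 CPM, where a library holds 16.7 to 19.8 counts.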
